A study of Mus musculus with 42 samples.

Results

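The plasma carrier and binding proteins are the liver-secreted proteins that hold lipids, hormones, vitamins, metals, heme or haemoglobin in blood plasma. They were represented by 10 genes, chosen by name: transferrin (Trf), haptoglobin (Hp), hemopexin (Hpx), the precursor of alpha-1-microglobulin and bikunin (Ambp), fetuin-A (Ahsg), fetuin-B (Fetub), albumin (Alb), alpha-fetoprotein (Afp), transthyretin (Ttr) and retinol-binding protein 4 (Rbp4). All 10 had a probe among the 19057 genes with a symbol on the array, with 14 probes in all, and 9 were among the 10879 genes that passed the detection filter and entered the tests. Alb and Afp passed that filter through the arrays of one group, the E16 hepatocytes, and Rbp4 did not pass it. Total RNA of 42 mouse samples had been measured on Illumina expression arrays, 1 array per sample. Germline cell-derived pluripotent stem cells of 2 lots (GPSC-A and GPSC-B) and embryonic stem (ES) cells were each measured at day 0, not treated, and after 2, 7, 14, 21 and 28 days as embryoid bodies, which are floating aggregates of differentiating cells, in a cocktail meant to induce liver differentiation (2 arrays per line and day). Primary liver hepatocytes came from mice at postnatal day 1 (PN1) and from embryos at embryonic day 16 (E16), with 3 arrays each. The labels name no strain, no cocktail ingredient and no allele, and they do not say whether the arrays of a group came from separate cultures or animals, so the p-values measure the spread between arrays, which may be technical.

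These proteins are made mainly by hepatocytes and released into the blood. In mouse development the visceral endoderm of the yolk sac makes many of them before the liver does, and Afp is the fetal counterpart of Alb. Transferrin carries iron to cells that take it up through the transferrin receptor, haptoglobin captures free haemoglobin and hemopexin captures free heme, and transthyretin travels with retinol-binding protein 4. Haptoglobin and hemopexin also rise in inflammation, as acute phase proteins, and both can be made outside the liver.

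Between 9873 and 15123 of the 45281 probes were detected on a culture array, 8427 to 9287 on a PN1 array and 9882 to 11539 on an E16 array, where detected means a detection p under 0.01 against the negative controls of that array. The scanner signal has no fixed unit, and the median probe, near background, read 116 to 158 on culture arrays, 109 to 112 on PN1 arrays and 110.4 to 115 on E16 arrays. Hepatocyte markers outside the 10 genes (16 with a probe) had a summed signal of 13044 to 18084 in PN1 hepatocytes, with 8 detected on every array, and of 124828 to 148298 in E16 hepatocytes, with 11 detected on every array. Apoh, Serpinc1, Fgb and Tat were detected on no array of either preparation, and Serpina1a and Cps1 on no PN1 array. Both preparations also carried markers of blood cells. The erythroid markers (7 with a probe) summed to 108137 to 120928 in PN1 and to 116597 to 121825 in E16 hepatocytes, with 6 of them detected on every array in each. The neutrophil markers (10 with a probe, 9 detected on every hepatocyte array) summed to 107282 to 139242 in PN1 and to 55145 to 62951 in E16, and the macrophage markers (11 with a probe, 7 detected on every array) to 38849 to 49812 and 16308 to 18664 in the same order. In such bulk RNA, fewer cells of a type and less RNA per cell cannot be told apart.

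After 28 days, GPSC-A and GPSC-B cultures had 6 of the 10 genes detected on both arrays and ES cultures had 5. In PN1 hepatocytes 6 genes were detected on every array, and in E16 hepatocytes 9. The genes of the differentiated cultures were Trf, Hp, Hpx, Ambp and Ahsg, with Fetub added in the GPSC lines. Alb, Afp and Rbp4 were detected on 0 of the 36 culture arrays, and Ttr on 2 of them, both from ES cultures. At day 0, no gene was detected on both GPSC-A arrays, Trf and Fetub were detected on both GPSC-B arrays, and Trf, Fetub and Ahsg on both ES arrays.

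**Figure D1:**
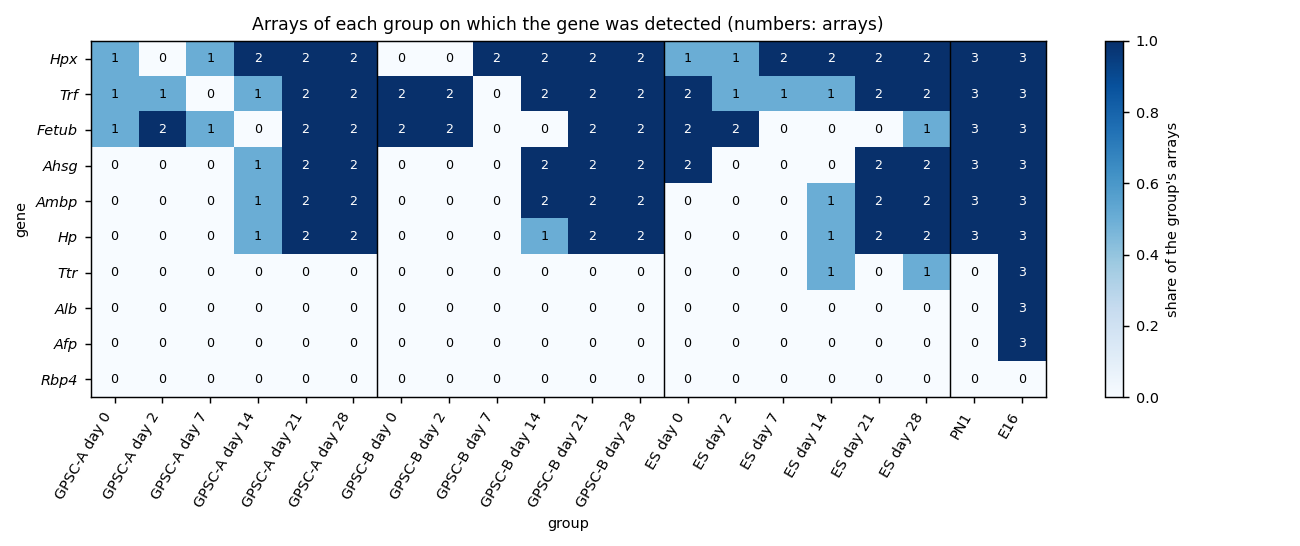
Number of arrays of each group on which a carrier gene was detected (detection p under 0.01, for the probe that stood for the gene). Rows are genes, columns are the 20 groups (GPSC-A, GPSC-B and ES by day, then PN1 and E16), and the shade is the share of the group's arrays. Alb and Afp are filled in the E16 column alone, Rbp4 in none, and the dense block at days 21 and 28 holds Hpx, Trf, Ahsg, Ambp and Hp.

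Hpx was the first of these genes with lasting detection, that is on both arrays of a day and of every later day. It was detected from day 7 in GPSC-B and ES cultures and from day 14 in GPSC-A. Ambp, Ahsg and Trf followed at day 14 in GPSC-B and at day 21 in GPSC-A and ES, and Hp at day 21 in all 3 lines. Fetub had lasting detection from day 21 in both GPSC lines and none in ES cultures. With 1 detected array taken as enough, Ambp and Hp were first seen at day 14 in every line. Fetub then had lasting detection from day 28 in ES cultures. Trf and Hpx both had it from day 0 in ES, so Hpx was not ahead of Trf there. In GPSC-A, Hpx then moved to day 7 and Trf and Ahsg to day 14. With a detection p of 0.05 as the limit, Hp moved to day 14 in GPSC-B, Ahsg to day 14 in GPSC-A, and Ttr reached both ES arrays at day 28. At that limit Fetub had lasting detection from day 21 in all 3 lines, so its difference between lines depended on the limit.

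Among the 10 genes, Alb and Afp are neighbours on mouse chromosome 5, and Ahsg and Fetub on chromosome 16, each pair with 0 protein-coding genes between them in the RefSeq annotation. The windows of 300 bases around their starts (250 before and 50 after, RefSeq sequence, build GRCm38.p6), printed along the gene's strand, show the pair that stayed undetected in culture and the pair in which one gene changed more than the other. Capitals mark matches, on either strand, to 5 motifs known from liver promoters. The core of the HNF1 site was searched as GTTAAT, and the site of the C/EBP factors as TTGCNNAA. For FOXA factors the letters TGTTTAC were used. The motif of HNF4 was taken as CAAAGTC, and that of the TATA box, which positions the polymerase, as TATAAA. The window of Hpx, which was called higher at day 28 in every line, is added.

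Alb, chr5:90460620-90460919, plus strand: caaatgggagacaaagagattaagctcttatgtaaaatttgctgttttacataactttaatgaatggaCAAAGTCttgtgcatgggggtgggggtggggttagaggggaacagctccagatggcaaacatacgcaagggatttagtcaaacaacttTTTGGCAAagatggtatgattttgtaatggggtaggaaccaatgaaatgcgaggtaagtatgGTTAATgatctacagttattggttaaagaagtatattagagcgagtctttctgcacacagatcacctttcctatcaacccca
Afp, chr5:90490464-90490763, plus strand: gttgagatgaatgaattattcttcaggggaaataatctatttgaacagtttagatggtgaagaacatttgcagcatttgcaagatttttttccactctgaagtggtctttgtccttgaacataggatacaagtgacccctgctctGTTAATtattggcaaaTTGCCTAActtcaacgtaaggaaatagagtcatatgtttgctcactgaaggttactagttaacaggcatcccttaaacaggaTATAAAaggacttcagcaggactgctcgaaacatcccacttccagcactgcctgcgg
Ahsg, chr16:22891765-22892064, plus strand: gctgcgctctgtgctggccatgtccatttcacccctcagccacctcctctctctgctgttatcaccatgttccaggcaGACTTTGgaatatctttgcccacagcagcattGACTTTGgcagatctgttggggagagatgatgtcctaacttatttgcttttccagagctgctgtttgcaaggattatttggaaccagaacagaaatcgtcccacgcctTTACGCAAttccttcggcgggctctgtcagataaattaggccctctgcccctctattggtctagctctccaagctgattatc
Fetub, chr16:22918132-22918431, plus strand: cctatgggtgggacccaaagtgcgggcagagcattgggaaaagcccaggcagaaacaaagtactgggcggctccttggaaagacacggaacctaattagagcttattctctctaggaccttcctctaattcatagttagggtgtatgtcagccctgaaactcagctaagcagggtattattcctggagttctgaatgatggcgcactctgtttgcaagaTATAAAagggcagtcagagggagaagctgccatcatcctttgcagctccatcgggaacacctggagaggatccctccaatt
Hpx, chr7:105600067-105600366, minus strand: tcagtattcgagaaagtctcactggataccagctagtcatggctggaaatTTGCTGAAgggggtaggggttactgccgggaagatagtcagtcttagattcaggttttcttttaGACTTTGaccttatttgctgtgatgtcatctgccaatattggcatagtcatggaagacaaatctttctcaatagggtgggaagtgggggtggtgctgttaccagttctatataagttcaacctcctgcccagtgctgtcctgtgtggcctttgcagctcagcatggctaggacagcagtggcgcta

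Windows were at hand for 7 of the 10 genes, with 2 alternative starts for Fetub and Rbp4, of which the first Fetub start is shown. A gene was counted where any of its windows matched (9 windows in all), while the shares of all promoters count single windows. The 2 are therefore not strictly alike. The C/EBP letters were in a window of 5 of the 7 genes (Alb, Afp, Ahsg, Rbp4 and Hpx) and in 10.8% of 32851 mouse promoters of the same length. The HNF4 letters were in those of Alb, Ahsg and Hpx (3 of 7, against 4.44% of all promoters) and the HNF1 core in those of Alb and Afp (2 of 7, against 7.1%). The TATA letters occurred in Afp, Fetub and Rbp4 (3 of 7, against 13.6%), and the FOXA letters in the second windows of Fetub and Rbp4 (2 of 7, against 3.65%). The Ambp window held none of the 5, and no 2 matches of different motifs overlapped. A match is a run of letters and not a measured binding site. The Alb and Afp windows, whose genes were undetected in culture, and the Ahsg and Hpx windows, whose genes changed there, all held the C/EBP letters. The Ambp window, whose gene was called higher at day 28 in every line, did not.

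The changes in culture were tested against day 0 of the same line, which all later days of that line share. A gene was called higher or lower where the normalised log2 level differed by at least 2-fold with an adjusted p under 0.05 over all 10879 genes. The tests use normalised levels, whose order among groups can differ from that of the scanner signal. At day 28 both GPSC lines had Trf, Hp, Hpx, Ambp and Ahsg called higher (5 genes). Of all genes, 15.3% were called higher in GPSC-A and 16.8% in GPSC-B. ES cultures had 4 of these, without Ahsg, against 17.3% of all genes. None of the 9 tested genes was called lower at day 28 by limma, nor was any at an unadjusted p under 0.05 (0 in each line), where 13.5% of all genes were called lower in GPSC-A, 15.2% in GPSC-B and 16.5% in ES. The same genes were called at day 21, 5 in GPSC-A (13.9% of all genes), 5 in GPSC-B (14.8%) and 4 in ES (16.9%).

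**Figure D2:**
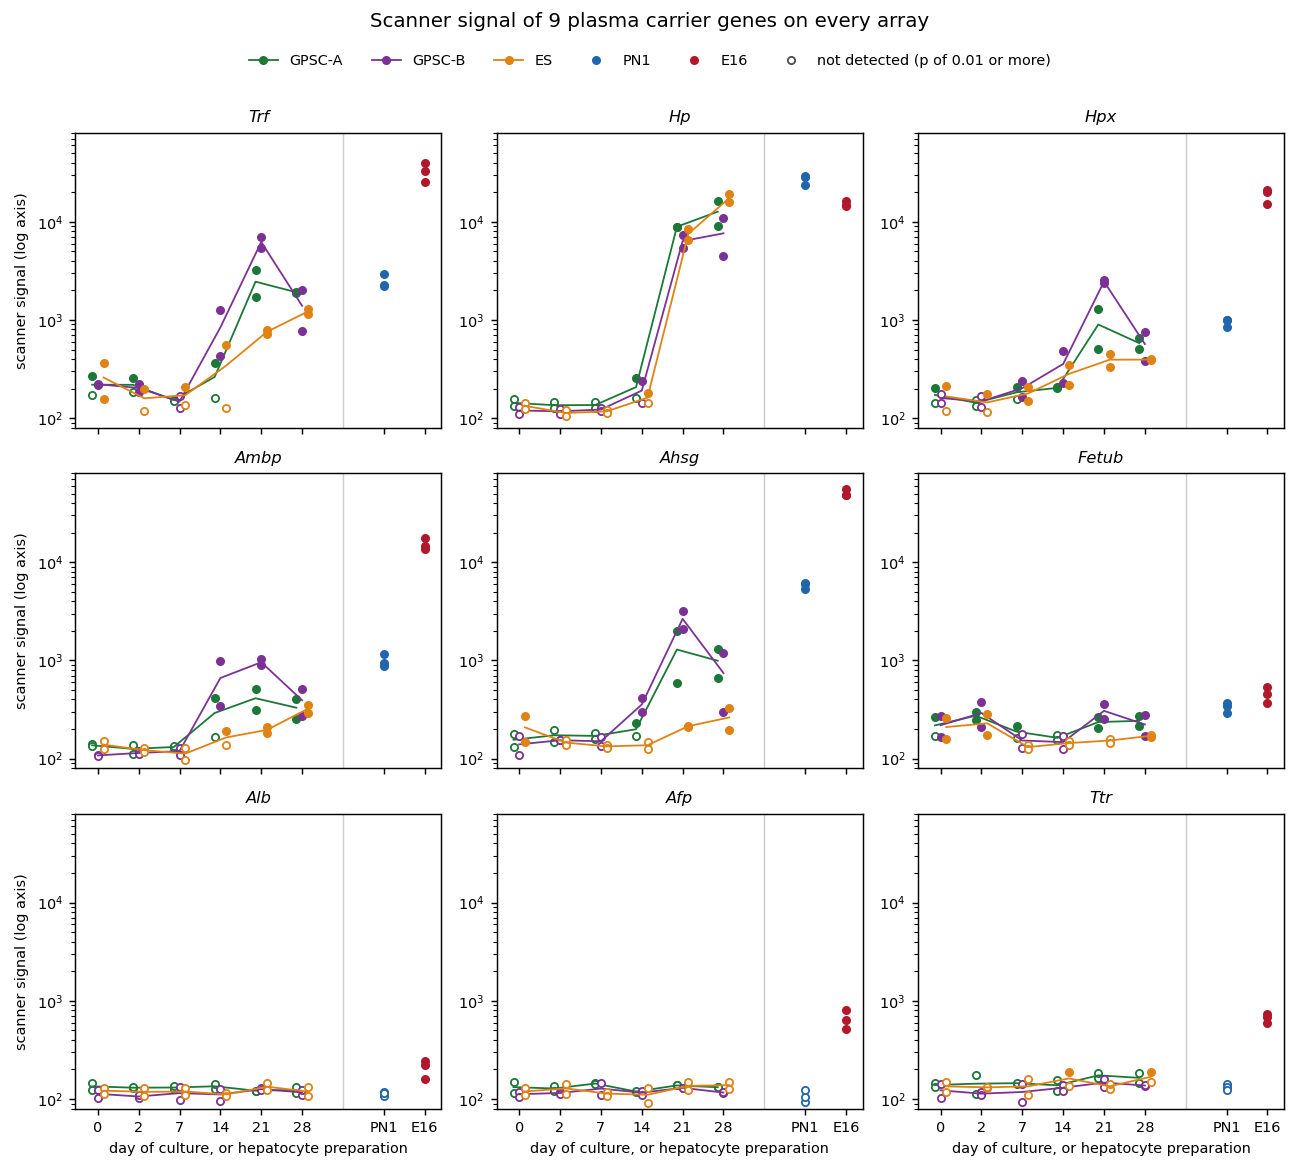
Scanner signal (log axis, no unit) of 9 carrier genes on every array. Circles are single arrays of GPSC-A, GPSC-B and ES by day of culture and of PN1 and E16 hepatocytes, open where the probe was not detected, and lines join the group means. Hp reaches 4432 to 18995 at day 28, Trf, Hpx and Ahsg peak at day 21 in GPSC-B, and Alb and Afp stay at background in every culture.

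Trf, the carrier of plasma iron, was higher at day 28 in every line. Its signal was 1888 and 1938 in GPSC-A cultures at day 28, against 267 and 171 at day 0. In GPSC-B it was 2008 and 778 at day 28, against 225 and 219 at day 0, and in ES 1289 and 1147, against 361 and 157. No array of day 28 overlapped its day 0 group, and the log2 change was 4.12 (SE 0.81, adjusted p = 0.00019) in GPSC-A, 3.56 (SE 0.81, adjusted p = 0.00083) in GPSC-B and 3.52 (SE 0.81, adjusted p = 0.00082) in ES. At day 7 the signal was near background in all lines, at 155 and 151 in GPSC-A cells, 169 and 126 in GPSC-B and 206 and 137 in ES. Day 14 split the arrays: GPSC-B had 1249 and 432 and was called higher than day 0 by 2.19 (SE 0.81, adjusted p = 0.044), while GPSC-A had 162 and 364 and ES 126 and 559, each with 1 array near background and 1 above it, and neither was called. The GPSC-B call was lost without any 1 of its 4 arrays (1.83 to 2.55, adjusted p 0.081 to 0.23), with median scaling (adjusted p = 0.062) and without the detection filter (adjusted p = 0.086). Day 21 gave the highest GPSC signals, 3189 and 1718 in GPSC-A cells and 6981 and 5463 in GPSC-B, with 794 and 720.5 in ES. The changes from day 0 were 4.32 (SE 0.81) in GPSC-A, 5.79 in GPSC-B and 2.83 in ES on the log2 scale. In the hepatocytes the signal was 2910.3, 2210.1 and 2265 in PN1 and 32517, 25499 and 39564 in E16. By mean normalised log2 level (± SD), the order began with E16 (15.42 ± 0.31, n = 3), PN1 (12.55 ± 0.04, n = 3), GPSC-B at day 21 (12.44 ± 0.47, n = 2) and GPSC-A at day 21 (10.92 ± 0.74, n = 2). On that scale the PN1 mean lay within the SD of GPSC-B at day 21, while by scanner signal GPSC-B at day 21 lay above PN1. The difference between these groups was not tested.

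Hp, which binds haemoglobin released from red cells, had the largest fitted log2 change from day 0 of the tested genes in all 3 lines, at days 21 and 28. At day 14 its signal was still 254 and 160.4 in GPSC-A cells, 238 and 144 in GPSC-B and 142 and 182 in ES. At day 21 it stood at 8943 and 8847, 7279 and 5433 and 8521 and 6560.3 in GPSC-A, GPSC-B and ES, so every array of day 21 lay above every array of day 14. Day 28 gave 9119 and 16217 in GPSC-A against 155 and 132 at day 0, 10814 and 4432 in GPSC-B against 129 and 111, and 15795 and 18995 in ES against 143 and 124. As no day 0 array detected Hp, the rise is a lower bound: at least 171-fold in GPSC-A (adjusted p = 5.2e-16), 127-fold in GPSC-B (adjusted p = 2.2e-15) and 330.3-fold in ES (adjusted p = 1e-16). In the hepatocytes Hp read 28600.2, 23578 and 29232 in PN1 and 16393, 14326 and 14801 in E16. By scanner signal the day 28 ES arrays lay within or above the range of the E16 arrays and below the PN1 arrays, and on the normalised scale they lay on either side of the E16 arrays. The gene's other probes were read separately and were called higher at day 28 in every line as well.

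Hpx, the heme carrier, was detectable earlier and changed less. Its signal at day 28 was 510.1 and 652 in GPSC-A, against 201 and 143 at day 0. GPSC-B had 752 and 386 at day 28, against 178 and 142 at day 0, and ES 392 and 398, against 214 and 119. The groups did not overlap in any line, and the log2 changes were 3.09 (SE 0.46, adjusted p = 5.2e-06) in GPSC-A and 2.99 (adjusted p = 6e-06) in ES. In GPSC-B, where no day 0 array detected Hpx, the rise was at least 8.19-fold (adjusted p = 2.6e-06). Day 21 was the peak in both GPSC lines, with 1289 and 508 in GPSC-A cells and 2528 and 2398 in GPSC-B, against 453 and 335 in ES. At day 14 ES cultures (348 and 216) and GPSC-B cultures (484 and 229) were already called higher than day 0, ES by 1.90 (adjusted p = 0.0022) on the log2 scale and GPSC-B by at least 2.89-fold (adjusted p = 0.0064). Both calls were lost without background correction, with the authors' processed signal and without 1 of the arrays compared. PN1 hepatocytes read 1000.5, 846 and 1009 and E16 hepatocytes 20287, 15039 and 21225. A dimmer second Hpx probe read 265 and 232 in GPSC-B at day 21, its one culture group with detection, 187, 165 and 146 in PN1, where 2 of 3 arrays detected it, and 1703, 1194 and 1841 in E16.

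Ambp encodes a precursor that is cut into alpha-1-microglobulin, a small binding protein of the lipocalin family, and the protease inhibitor bikunin. No day 0 array detected it. At day 28 its signal was 251 and 408 in GPSC-A cells, 516 and 269 in GPSC-B and 352 and 290.2 in ES, and the highest day 0 signal of any line was 151. The rise was at least 2.32-fold in GPSC-A (adjusted p = 0.00019), 4.94-fold in GPSC-B (adjusted p = 3.3e-06) and 4.26-fold in ES (adjusted p = 4.7e-05). GPSC-B had reached 982 and 341 at day 14 and 893 and 1021 at day 21. GPSC-A stood at 165 and 417 at day 14 and 513 and 310.0 at day 21, and ES at 191 and 137 and 210.5 and 181 on those days. Against day 0, the day 14 level was called higher in GPSC-B by at least 6.12-fold (adjusted p = 1.7e-06) and in GPSC-A by at least 1.38-fold (adjusted p = 0.0093), and it was not called in ES. The GPSC-A call rests on 1 detected array of 2, without which the fitted log2 change was 0.57 (adjusted p = 0.52). It was also lost without the first day 0 array (adjusted p = 0.056), without background correction, with the authors' processed signal and on only the groups compared (adjusted p = 0.18). PN1 hepatocytes read 1154, 950.3 and 867 and E16 hepatocytes 17766, 13547 and 14755. By scanner signal the day 21 GPSC-B arrays fell within the range of PN1, and all other culture groups had at least 1 array below it. The normalised log2 level was 9.60 ± 1.00 (SD, n = 2) in GPSC-B at day 21, lower than the 11.32 ± 0.06 (SD, n = 3) of PN1.

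Among the fetuins, cystatin-family proteins of plasma, Ahsg binds calcium phosphate and Fetub inhibits the egg protease that hardens the zona pellucida in mice. Ahsg was called higher at day 28 in both GPSC lines and not in ES cells. Its signal at day 28 was 1318 and 665 in GPSC-A, against 179 and 132 at day 0, and 1189 and 297 in GPSC-B, against 170.0 and 109. ES cultures had 194 and 330.1 at day 28, against 269.9 and 146 at day 0, and these groups overlapped. The rise was at least 10.4-fold in GPSC-A (adjusted p = 1.2e-05) and 8.62-fold in GPSC-B (adjusted p = 7.7e-05), while the ES log2 change of 0.94 (SE 0.69, adjusted p = 0.31) did not pass. Tested as a difference between lines, the GPSC-B change to day 28 exceeded that of ES by a fitted 2.82 (SE 0.97, adjusted p = 0.18). It did not pass, and the difference of GPSC-A from ES is given below. At day 21 the signal was 1986 and 593 in GPSC-A cells, 2090.3 and 3204 in GPSC-B and 211 and 217 in ES. PN1 hepatocytes read 6093, 5275 and 5937 and E16 hepatocytes 48766, 48752 and 55539, with no overlap among the cultures, PN1 and E16. A second, dimmer Ahsg probe was detected in the E16 hepatocytes alone, at 613, 451 and 629, so the culture and PN1 values rest on 1 probe.

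Fetub, the neighbour of Ahsg, took another course: it was near the detection limit at day 0 and dim at days 7 and 14. It was detected again later, on both arrays in the GPSC lines and on 1 of 2 ES arrays at day 28. The signal at day 2 was 299 and 247 in GPSC-A cells, 375 and 207 in GPSC-B and 283 and 174 in ES. At day 14 it was 172 and 153 in GPSC-A, against 266 and 169.7 at day 0. GPSC-B had 170.1 and 124 at day 14, against 272 and 165 at day 0, and ES 152 and 136, against 260.3 and 159. As Fetub was undetected at day 14, the fall was at least 1.87-fold in GPSC-A (adjusted p = 0.022; 7.96% of all genes called lower), 1.67-fold in GPSC-B (adjusted p = 0.016; 10.5%) and 1.63-fold in ES (adjusted p = 0.037; 11%). A fall was also called at day 7 in GPSC-B, by at least 1.61-fold (5.96% of all genes called lower), and in ES, by at least 1.4-fold (7.86%). Each of these calls was lost without background correction, with the authors' processed signal and without at least 1 of the arrays compared. With median scaling all but the day 7 call of ES were lost. On only the groups compared the calls of the GPSC lines were lost. Without the detection filter the calls of ES at day 14 and GPSC-B at day 7 were lost. At day 28 the signal was 268 and 217 in GPSC-A cells, 276 and 169.9 in GPSC-B and 174 and 167 in ES, and the log2 change from day 0 was 0.05 (SE 0.40, adjusted p = 0.95), 0.24 (adjusted p = 0.69) and -0.42 (adjusted p = 0.45) in the same order. PN1 hepatocytes read 364, 344 and 291 and E16 hepatocytes 533, 372 and 449.5, which overlapped.

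Alb, the main protein of plasma, was read by 1 probe, which gave a low signal in every group. Across the 36 culture arrays it ranged over 96.3 to 145 with a median of 123, and over 107, 118 and 114 in PN1 hepatocytes, all undetected. In E16 hepatocytes it read 221, 159 and 245, just above the lowest signal detected on those arrays (143 to 155). All 3 E16 arrays lay above every other array, but a probe this dim in fetal liver cells can show a culture level only as a bound. Afp, the fetal relative of albumin, was likewise detected in E16 hepatocytes alone. It ranged over 91.2 to 149.9 on the culture arrays and over 93.5 to 123 in PN1 hepatocytes, undetected on each, and read 643, 522 and 799 in E16 hepatocytes. Ttr, the carrier of thyroid hormone and partner of retinol-binding protein, read 141, 134 and 124 in PN1, undetected, and 735, 592 and 689.9 in E16 hepatocytes. The culture arrays ranged over 92.7 to 187, and the 2 detected ones were 1 of the 2 ES arrays at day 14, at 187.3, and 1 of the 2 at day 28, at 186.8. ES cultures at day 28 were not called against day 0, where no array detected Ttr (at least 1.06-fold higher, adjusted p = 0.036). The Afp and Ttr probes were also dim in E16 hepatocytes, where the brighter Ahsg probe read 48752 to 55539. Their undetected culture levels are therefore bounds as well. Rbp4, which carries retinol out of the liver, was undetected on all 42 arrays, with 95.4 to 117 in PN1 and 108 to 128 in E16 hepatocytes. No Rbp4 level was therefore measured in any group.

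At day 14, GPSC-B had the most calls of the 3 lines. It had 5 genes called higher than day 0 (Trf, Hp, Hpx, Ambp and Ahsg; 11.7% of all genes), GPSC-A had 2 (Ambp and Hp; 10%) and ES had 1 (Hpx; 12.9%). The Hp calls of day 14 rest on 1 detected array of 2 in each GPSC line. Its other probes were detected on no GPSC-B array at day 14, and in GPSC-A 1 of them was detected on 1 array. The rise was at least 1.03-fold in GPSC-B (adjusted p = 0.038), and in GPSC-A (adjusted p = 0.035) the bound is under 1, so no fold is given. These counts depend on single arrays and on the processing. With 1 of the 4 arrays left out, GPSC-B had 2 or 3 genes called higher, GPSC-A 0 to 1 and ES 0 to 3. Without background correction GPSC-B had 2, GPSC-A 0 and ES 0, and the counts with the authors' processed signal were 2, 0 and 0. Ambp in GPSC-B kept its call under every alternative tried. The change since day 0 was then compared between lines, in tests that the design had not fixed. The Ambp change to day 14 was larger in GPSC-B than in ES by 3.12 (SE 0.72, adjusted p = 0.024) on the log2 scale, a difference that 0.377% of all genes passed in that direction. Day 0 groups that did not detect a gene (Ambp in every line, Ahsg in both GPSC lines, Hpx in GPSC-B) enter these differences at background, so the values given for them are fitted ones and not measured sizes. To day 21, GPSC-B exceeded ES in its change of Ambp by 3.41 (SE 0.72, adjusted p = 0.0097), of Ahsg by 5.36 (SE 0.97, adjusted p = 0.0021) and of Hpx by 2.44 (SE 0.65, adjusted p = 0.049), where 0.735% of all genes passed. For Trf the same difference was 2.97 (SE 1.14, adjusted p = 0.26) and did not pass. GPSC-A exceeded ES in its change of Ahsg by 3.75 (SE 0.97, adjusted p = 0.026) to day 21 (1.8% of all genes) and by 3.41 (SE 0.97, adjusted p = 0.046) to day 28 (1.6%). The Ahsg difference of GPSC-B at day 21 passed with each array left out in turn and under each alternative setting. The other 5 each failed with at least 1 array left out, with values down to 2.62 for Ahsg in GPSC-A to day 21 and 2.37 to day 28, down to 2.72 for Ambp in GPSC-B to day 14 and 2.71 to day 21, and down to 1.91 for Hpx. Fitted on only the groups compared, all 5 failed (adjusted p 0.053 to 0.16). With median scaling Ambp to day 14 (adjusted p = 0.066) and Hpx (adjusted p = 0.11) failed. Ahsg in GPSC-A failed without background correction to day 21 (adjusted p = 0.056) and to day 28 (adjusted p = 0.12), and to day 28 also with the authors' processed signal (adjusted p = 0.092). Without the detection filter or with all kept probes, Hpx (adjusted p = 0.08 and 0.06) and Ahsg in GPSC-A to day 28 (adjusted p = 0.086 and 0.055) failed. With the replicate number as a block within lines, the difference of GPSC-B from ES passed for 2 more changes, Ahsg to day 14 at 3.50 (adjusted p = 0.047) and Fetub to day 21 at 1.76 (adjusted p = 0.019).

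**Figure D3:**
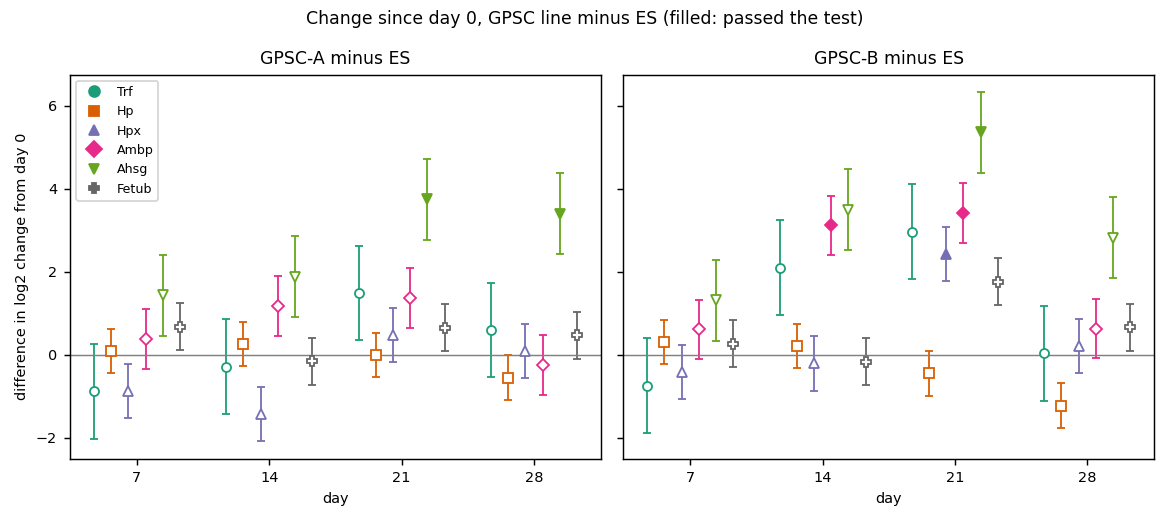
Change in log2 level since day 0 in a GPSC line minus the change in ES cells, at days 7, 14, 21 and 28, for GPSC-A (left) and GPSC-B (right). Points are genes with their standard error, filled where the difference passed the test over all genes, and fitted values where a day 0 group did not detect the gene. Filled points are Ahsg in GPSC-A at days 21 and 28, Ambp in GPSC-B at days 14 and 21, and Ahsg and Hpx in GPSC-B at day 21.

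The levels of the lines were also compared on one day. These comparisons at day 21, and those of day 28 with day 21, were added after the values had been seen. At day 21, GPSC-B was called higher than ES in Trf, Ambp, Ahsg, Fetub and Hpx (5 genes; 2.64% of all genes). The log2 differences were 2.78 (SE 0.81, adjusted p = 0.033) for Trf, 2.89 (adjusted p = 3e-04) for Ambp, 4.14 (adjusted p = 0.00016) for Ahsg and 2.61 (adjusted p = 0.00032) for Hpx. Fetub, undetected in ES at day 21, was at least 2.79-fold higher in GPSC-B (adjusted p = 0.006). The Trf call was lost without any 1 of the 4 arrays (lowest value 2.45) and without the detection filter (adjusted p = 0.066). The Fetub call was lost without 1 array of either line, without background correction (0.80 on the log2 scale) and with the authors' processed signal (0.90), both under 2-fold. GPSC-A was called higher than ES in Ahsg alone, by 2.57 (SE 0.69, adjusted p = 0.016) at day 21 (3.07% of all genes) and by 2.23 (SE 0.69, adjusted p = 0.042) at day 28 (2.85%). The day 21 difference was 1.44 without the first GPSC-A array and did not pass then, and Fetub passed as well, at 1.19 (adjusted p = 0.019), with the replicate block within lines. The day 28 difference was 1.19 without one of the ES arrays and 1.34 without one of the GPSC-A arrays, and neither passed. On only the groups compared, both failed (adjusted p = 0.073 at day 21 and 0.22 at day 28). At day 28 GPSC-B was called lower than ES in Hp, by -1.48 (SE 0.38, adjusted p = 0.014) (3.48% of all genes), with signals of 10814 and 4432 in GPSC-B and 15795 and 18995 in ES. This call was lost with median scaling (-1.44, adjusted p = 0.095), on only the groups compared (adjusted p = 0.14), without the second ES array (-1.12, adjusted p = 0.28) and without the second GPSC-B array (-1.16, adjusted p = 0.31). Within GPSC-B, Hpx fell between the last days, to 752 and 386 at day 28 against 2528 and 2398 at day 21, a log2 change of -2.28 (SE 0.46, adjusted p = 0.01) (0.506% of all genes called lower). Without the second GPSC-B array of day 21 it was -1.75, and without the second of day 28 it was -1.96, and neither passed, nor did the fit on only the groups compared (adjusted p = 0.68). Trf, Ambp and Ahsg were also lower at day 28 on both arrays, with log2 differences of -2.24 (SE 0.81, adjusted p = 0.3), -1.53 (adjusted p = 0.22) and -2.28 (adjusted p = 0.13), which did not pass. Between days 21 and 28 limma called 0 of the genes in GPSC-A and 0 in ES, and at an unadjusted p under 0.05 there were 0 in GPSC-A and 3 in ES (Ttr, Ambp and Hp, all higher at day 28). The summed signal of the hepatocyte markers outside the set was 10835 to 13704 in GPSC-B at day 21, 5372 to 9922 in GPSC-A and 3493 to 3942 in ES. At day 28 it was 4632 to 6669 in GPSC-B, 5904 to 6969 in GPSC-A and 5780 to 6042 in ES. The day 0 sums were 1906 to 2204, 2430 to 2811 and 1835 to 2417 in the same order. Of the 16 with a probe, 8, 7 and 6 were detected on both arrays at day 21, and 6, 6 and 6 at day 28. Apoh, Serpinc1, Fgb, F2, Tat and Hpd were undetected in each line at days 21 and 28. Markers of visceral endoderm (13 with a probe) summed to 5365 to 14428 in GPSC-B at day 21, 7830.0 to 9433 in GPSC-A and 6133 to 9375 in ES. Of the 13, 7, 7 and 7 were detected on both arrays at day 21 in GPSC-A, GPSC-B and ES, and 6, 8 and 7 at day 28, against 6, 6 and 6 at day 0. Cubn, Sox17 and Foxa2 were undetected in each line at days 21 and 28. The part of these cell types in the line differences was not tested.

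Markers of other cell types were read on the same arrays. The neutrophil markers summed to 1583 to 1841 at day 28 in GPSC-A, 1956 to 2068 in GPSC-B and 2143 to 2223 in ES, against 1345 to 1608, 1198 to 1481 and 1173 to 1448 at day 0. Of the 10 neutrophil markers, 2, 3 and 2 were detected on both arrays at day 28 in GPSC-A, GPSC-B and ES, against 1, 0 and 0 at day 0. Ngp, Camp, Mpo and S100a9 were undetected at day 28 in every line, and S100a8 in GPSC-A and ES. The adipocyte markers (9 with a probe) summed to 1309 to 1605, 1207 to 1334 and 1169.8 to 1311 at day 28, against 1300.4 to 1410.1, 1036 to 1229 and 992 to 1341 at day 0, with 1 of 9 detected on both arrays in each line at day 28 and 0 at day 0. Adipoq, Fabp4, Plin1 and Cidec were undetected in every line at day 28. Macrophage markers summed to 2099.9 to 5226 in GPSC-A, 1479 to 5434 in GPSC-B and 11829 to 13831 in ES at day 28, against 1829.9 to 2623, 1793 to 2174 and 1419 to 2272 at day 0. Of the 11 with a probe, 1, 1 and 5 were detected on both arrays at day 28, against 2, 2 and 1 at day 0. Adgre1, Marco, Clec4f and Cd163 were undetected at day 28 in every line. Fibroblast markers (10 with a probe) summed to 21865 to 32924, 16316 to 28223 and 20946 to 32423 at day 28, against 3314 to 7414, 6368 to 6514 and 2767 to 10460.4 at day 0, and were low in PN1 (1143 to 1185) and E16 (1452 to 2060.0) hepatocytes. Their part in the rise of the carrier genes was not tested.

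Set against fetal hepatocytes, the day 28 cultures were lower in nearly every carrier gene. The 3 comparisons share the E16 arrays. GPSC-A was called lower in 8 of 9 tested genes (15.3% of all genes), GPSC-B in 9 (14.3%) and ES in 8 (15.9%). Limma called none higher, and 0 were higher at an unadjusted p under 0.05, where 19.2%, 18.9% and 20.1% of all genes were called higher in GPSC-A, GPSC-B and ES. Alb and Afp entered the test only because E16 arrays detected them, so their lower level in any other group follows from the filter. Among the genes detected in both groups, the gap was widest for Ahsg, Ambp and Hpx. Ahsg differed by -6.38 (SE 0.63) in GPSC-A, -7.01 in GPSC-B and -8.61 in ES on the log2 scale. Ambp differed by -7.17 (SE 0.46), -6.43 and -6.55, and Hpx by -6.10 (SE 0.42), -5.95 and -6.33, in the same order of lines. Trf followed with -4.70 (SE 0.74), -5.21 and -5.06, and Fetub with -2.86 (SE 0.37), -2.77 and -3.39. Hp lay closest to E16 among the genes detected in both groups. Its log2 difference was -0.96 (SE 0.35, adjusted p = 0.027) in GPSC-A, under 2-fold, -1.75 (adjusted p = 0.00014) in GPSC-B, called lower, and -0.27 (adjusted p = 0.57) in ES. The other Hp probes gave larger gaps, of -1.91, -2.76 and -1.32 for one and of -1.56, -2.50 and -0.77 for the other in GPSC-A, GPSC-B and ES. For genes undetected in the cultures the gap is a bound. Ttr was at least 20.6-fold lower in GPSC-A and 18.9-fold lower in GPSC-B, and in ES it differed by -4.27 (SE 0.34) on the log2 scale. Afp was at least 19.6-fold, 18-fold and 18-fold lower and Alb at least 3.53-fold, 3.24-fold and 3.24-fold lower in GPSC-A, GPSC-B and ES. These bounds are smaller than the gaps of Ahsg, Ambp and Hpx. Gaps as wide as those could thus not be seen for Afp, Alb or, in the GPSC lines, Ttr.

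**Figure D4:**
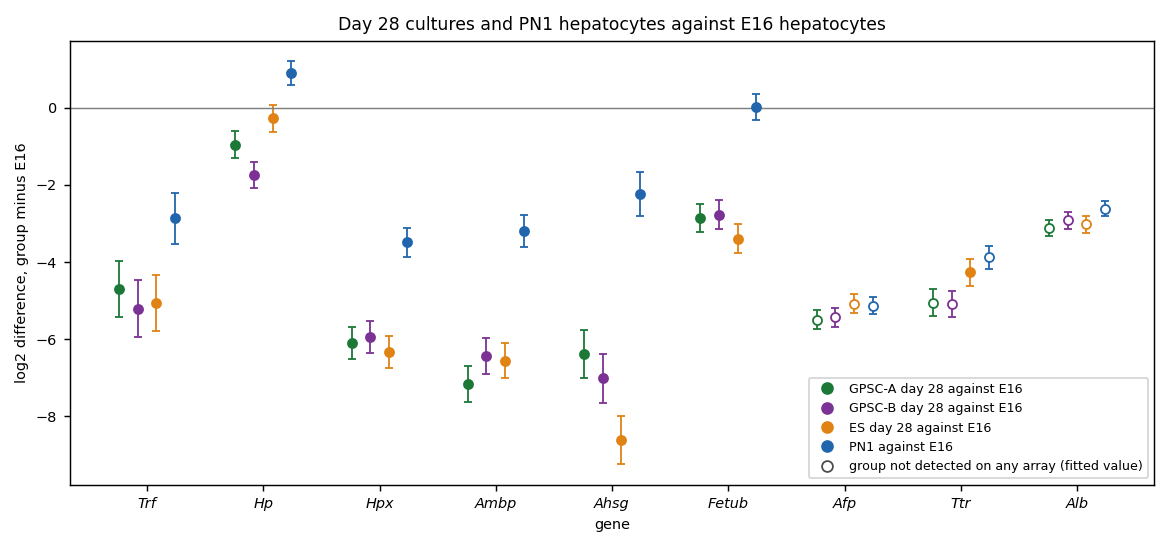
Difference in normalised log2 level from E16 hepatocytes for 9 carrier genes in day 28 cultures of GPSC-A, GPSC-B and ES and in PN1 hepatocytes. Points are fitted differences with their standard error, open where the group was not detected on any array and the value is a fitted one. All points of Ahsg, Ambp, Hpx and Trf lie below 0, and among the cultures the points of Hp lie nearest to it.

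Against PN1 hepatocytes the gaps of Ahsg, Ambp, Hpx and Trf were smaller, as these genes were lower in PN1 than in E16. GPSC-A was called lower in 7 genes (19.7% of all genes), GPSC-B in 7 (18.4%) and ES in 6 (19.1%). The count of the GPSC lines includes Ttr, which was detected in neither group and has no fold. The log2 difference of Ahsg was -4.15 in GPSC-A, -4.77 in GPSC-B and -6.38 in ES (SE 0.63), that of Ambp -3.98, -3.25 and -3.36 (SE 0.46), and that of Hpx -2.62, -2.47 and -2.85 (SE 0.42). Fetub differed by -2.88, -2.79 and -3.41 and Hp by -1.86, -2.65 and -1.17. For Trf the differences were -1.83 (SE 0.74, adjusted p = 0.038) in GPSC-A, -2.34 (adjusted p = 0.009) in GPSC-B and -2.19 (adjusted p = 0.014) in ES. The GPSC-A call was lost when the replicate number was added as a block (adjusted p = 0.06) or any 1 array was left out. The Trf call of GPSC-B was lost without its second day 28 array (-1.92). Without the first day 28 array of ES, its Trf call (-2.06) and its Hp call (-0.82) were lost. With arrays scaled to a common median in place of quantile normalisation, the Trf differences were -0.66 (adjusted p = 0.51), -1.24 (0.2) and -1.17 (0.24) in GPSC-A, GPSC-B and ES, and the Hp difference of ES was -0.73 (adjusted p = 0.16). That scaling moved the median of all genes in these and the other comparisons by -0.19 to 0.98 on the log2 scale.

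Between the hepatocyte preparations, 7 of the 9 tested genes were called lower in PN1 than in E16 (13.5% of all genes) and none higher (10.3%), with 1 gene, Hp, higher at an unadjusted p under 0.05. The 7 include Alb and Afp, which only E16 arrays detected, so their lower level in PN1 follows from the filter. Hpx fell by 3.48 on the log2 scale (SE 0.38, adjusted p = 1.7e-08). The log2 difference was -3.19 (SE 0.41, adjusted p = 4.7e-07) for Ambp, -2.87 (SE 0.66, adjusted p = 0.001) for Trf and -2.24 (SE 0.56, adjusted p = 0.0025) for Ahsg. The PN1 arrays lay below all E16 arrays for each of these genes. Afp, whose gene is turned down after birth in mice, was at least 7.94-fold lower in PN1 and Ttr at least 8.34-fold. The bound for Alb, which read just above the detection limit in E16, was at least 1.43-fold lower. Fetub did not pass (0.02 (SE 0.33, adjusted p = 0.98)), and Hp was 0.90 (SE 0.31, adjusted p = 0.025) on the log2 scale, higher in PN1 but under 2-fold, while its other probes, at 1.07 and 1.11, were called higher. The hepatocyte markers outside the set were lower in PN1 as well, and the neutrophil and macrophage markers higher, as given above, and the part of cell composition in these differences was not tested.

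Across the 18 culture groups, the group means of Trf, Hp, Hpx, Ambp and Ahsg were correlated. Pearson's r was 0.930 for Trf with Ahsg, 0.924 for Trf with Hpx and 0.908 for Trf with Ambp, and the lowest of the 10 pairs was Hp with Ambp, at 0.797. Fetub stood apart, at 0.018 to 0.308 with the other genes. These values are descriptions over 18 points that share their lines and days and a common trend with time. Many points lie at background: Hp was detected on both arrays in 6 of the groups, Ambp in 7, Ahsg in 8, Trf in 10 and Hpx in 11. The values therefore reflect in large part the step from undetected to detected. Mean Hp was highest at day 28 in every line, while Trf, Hpx, Ambp and Ahsg were highest at day 21 in both GPSC lines. The 2 genes outside the set most like each member over these groups were plasma proteins in part. Ahsg was most like Fga, the fibrinogen alpha chain (r = 0.976), and then Abcc9, a subunit of potassium channels (r = 0.928). Trf was most like Kng1, kininogen (r = 0.962), and Adh1, an alcohol dehydrogenase (r = 0.946). Hpx was most like Kng1 (r = 0.955) and Col3a1, a collagen chain and one of the fibroblast markers (r = 0.953). Ambp was most like Serpina1b, an alpha-1-antitrypsin (r = 0.949), and Ss18l2 (r = 0.934). Hp was most like Dpep1, a membrane dipeptidase (r = 0.996), and Lcn2, lipocalin 2 (r = 0.994). Fetub was most like Slc9b2 and Chchd10, at 0.895 and 0.882.

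**Figure D5:**
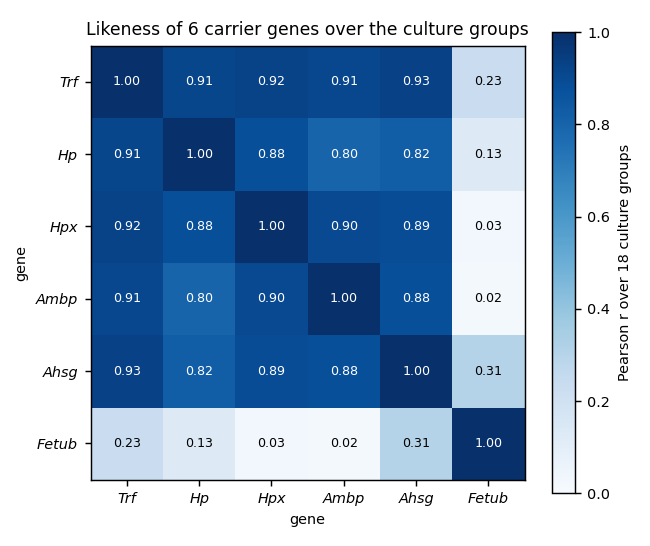
Pearson correlation of group mean log2 levels over the 18 culture groups for 6 carrier genes, printed in each cell and shaded from 0 to 1. Trf, Hp, Hpx, Ambp and Ahsg form a block with all values at 0.797 or above, and the Fetub row and column lie between 0.02 and 0.31.

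The other genes of the pathway were read from 3 lists. Of all genes, 15.3%, 16.8% and 17.3% were called higher and 13.5%, 15.2% and 16.5% lower at day 28 in GPSC-A, GPSC-B and ES. Of 19 tested other plasma carriers, 10 were called higher at day 28 than at day 0 in GPSC-A, 10 in GPSC-B and 11 in ES, and 1, 1 and 0 lower, with a median log2 change of 1.12, 1.94 and 1.94, where the median of all genes was between 0.00 and 0.06. Selenop, the selenium carrier, changed by 3.44, 4.40 and 6.23 in GPSC-A, GPSC-B and ES. Lcn2, which binds bacterial iron chelators, was at least 126-fold, 199-fold and 270.3-fold higher in the same order. Against E16 hepatocytes, 18 of the 19 were called lower in each line and 1 higher, the phospholipid transfer protein Pltp, where 15.3%, 14.3% and 15.9% of all genes were called lower. In PN1 against E16, 14 were lower (13.5% of all genes) and 0 higher (10.3%). Of 18 receptors and genes that handle the ligands, 3, 3 and 5 were called higher and 3, 4 and 3 lower at day 28 in GPSC-A, GPSC-B and ES. Except for the 5 higher in ES and the 4 lower in GPSC-B, these counts are about the shares of all genes. Fcgrt, the receptor that returns albumin to the blood, changed by 3.70, 3.47 and 4.31 on the log2 scale. Tfrc, the transferrin receptor, fell by 1.35 in GPSC-B and by 2.02 in ES on that scale. Hmox1, which breaks down heme, was higher in PN1 than in E16 hepatocytes by 2.40. Of 18 transcription factors that act on liver secreted genes, 13, 11 and 11 were called higher and 1, 1 and 1 lower at day 28 in GPSC-A, GPSC-B and ES. Cebpb, a C/EBP factor of the acute phase response, changed by 2.40, 2.85 and 1.87. Foxa1, a pioneer factor of endoderm, was higher by at least 6.69-fold in cells of GPSC-A and at least 5.75-fold in those of GPSC-B, and changed by 2.83 on the log2 scale in ES. In PN1 against E16, 10 of the factors were lower (13.5% of all genes), among them Foxa3 at -3.99, and 2 were higher (10.3%), among them Cebpa at 1.85.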

How the data were processed

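Each of the 42 samples was 1 Illumina array. Per the file headers, the authors deposited the scanner's signal intensity of every probe without normalisation, on a linear scale, together with a detection p-value. Per the submitters' processing notes the software was GenomeStudio, with no version recorded there. An intensity processed by the authors in an unstated way, also deposited (array medians 133.31 to 133.34, rank correlation with the scanner signal 1), served as an alternative. It holds levels, not ratios, and its scaling stays unknown. Columns of per-sample values left unused numbered 0.

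Of the 45281 probes, 34885 had 1 symbol in the platform annotation, 18 had several and 10378 had none. The neqc function of limma 3.58.1 (R 4.3.3) corrected background, normalised by quantiles and took log2 with an offset of 16. Probes detected (p under 0.01) on at least 2 arrays were kept (19251), and the probe with the highest mean stood for each of 10879 genes. One limma fit over 20 groups (22 residual degrees of freedom) gave moderated tests with Benjamini-Hochberg adjustment. Where a group was undetected on every array, the fold is a bound against the lowest detected signal of each array. The same rule of calling at least 2-fold and an adjusted p under 0.05 was used for 21 comparisons fixed in the design, 5 added after the values were seen, and 8 differences between lines. The 8 differences were not fixed in the design either. On simulated data for ES day 28 against day 0 (10879 genes), 55 of 100 changes of 1.5 and 97 of 100 of 3 on the log2 scale were recovered, with 11 false calls. The simulated arrays had independent normal noise around 1 mean per gene, without the shared deviations of same-numbered arrays given below. These rates therefore check the code and are not error rates of the real arrays. Figures used Python 3.11.15 and matplotlib 3.10.9.

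Arrays with the same replicate number deviated together within each line (correlation of deviations from group means 0.438 to 0.643 in GPSC-A, 0.326 to 0.591 in GPSC-B and 0.246 to 0.381 in ES, 15 pairs each), as did some between lines (-0.038 to 0.560), but not PN1 with E16 (0.0059 to 0.0816), so a block of the replicate number was fitted over all arrays and, added later, within lines. Replicate arrays of a group correlated at 0.950 to 0.982. The number of arrays limits the precision.

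The 10 genes and the lists of other carriers, receptors, regulators and cell type markers were chosen with earlier results of these data known. The hepatocyte markers share Apoa1, Apoa2, Apoh, Kng1 and Vtn with the other carriers. All 10 genes were named, with the 2 genes most like each member detected in at least 3 culture groups, and at most 4 of each list.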

Additional observations from a re-analysis of the deposited data

Results flagged for a closer look

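Each of these 6 values is a difference between 2 lines in their log2 change since day 0, tested as an interaction over all genes, and each rests on 2 arrays per group. These tests were not fixed in the design. For Ahsg, the change in GPSC-A exceeded that in ES by 3.75 (SE 0.97, adjusted p = 0.026) at day 21 and by 3.41 (SE 0.97, adjusted p = 0.046) at day 28, and the change in GPSC-B exceeded that in ES by 5.36 (SE 0.97, adjusted p = 0.0021) at day 21. For Ambp, GPSC-B exceeded ES by 3.12 (SE 0.72, adjusted p = 0.024) at day 14 and by 3.41 (SE 0.72, adjusted p = 0.0097) at day 21. For Hpx, GPSC-B exceeded ES by 2.44 (SE 0.65, adjusted p = 0.049) at day 21. The difference of Ahsg in GPSC-B at day 21 passed with each array left out and under each alternative tried, and the other 5 each failed with at least 1 array left out and on only the groups compared. Hpx also failed with median scaling (adjusted p = 0.11), without the detection filter (0.08) and with all kept probes (0.06). Where the day 0 group did not detect the gene (Ambp in both lines, Ahsg in the GPSC lines, Hpx in GPSC-B), the value is a fitted one and not a measured size. The groups of 2 and 3 arrays are too small for a test of single outlying arrays.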

How the results depend on the processing

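The counts of genes called at days 21 and 28 against day 0, at day 28 against the hepatocytes and in PN1 against E16 stayed within 1.5 times under every alternative tried. Smaller counts moved. Without background correction, the count was 0 for GPSC-A, 2 for GPSC-B and 0 for ES at day 14 (3, 6 and 2 as reported), 0 for GPSC-B and 0 for ES at day 7 (1 and 1), and 4 for GPSC-B and 1 for ES between days 21 and 28 (1 and 0). With the authors' processed signal it was 0, 2 and 0 at day 14 in GPSC-A, GPSC-B and ES, 0 and 0 at day 7 in GPSC-B and ES, and 3 for GPSC-B and 1 for ES between days 21 and 28. Median scaling gave 1 for GPSC-A and 1 for ES at day 14, 0 for GPSC-B at day 7 and 0 for GPSC-B against ES at day 28 (1). Without the detection filter it was 0 for GPSC-B at day 7, 1 for ES at day 14 and 0 for GPSC-A against ES at day 28 (1). Fitted on only the groups compared, it was 1 for GPSC-A (0 as reported) and 2 for ES at day 7, 0 for GPSC-A at day 14, 0 for both GPSC lines against ES at day 28, 0 for GPSC-A against ES at day 21 (1) and 0 for GPSC-B between days 21 and 28.

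With each array left out in turn, the counts ranged over 0 to 1 for GPSC-B and ES at day 7, 0 to 2 for GPSC-A, 3 to 3 for GPSC-B and 0 to 3 for ES at day 14, 0 to 1 for GPSC-A and for GPSC-B against ES at day 28, 0 to 1 for GPSC-A and 3 to 4 for GPSC-B against ES at day 21, and 0 to 2 for GPSC-B between days 21 and 28. A group left with 1 array was assumed to vary like the others. Trf in ES at day 14 against day 0 (reported 0.09) gave -2.051 when its higher array was left out and 2.231 when its lower one was. The Ambp rise of ES at day 21 did not pass without background correction, with median scaling or with the authors' processed signal.

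The replicate block ended the Trf call of GPSC-A against PN1 (-1.73, adjusted p = 0.06). Within lines it also ended that call (-1.97, adjusted p = 0.085), took GPSC-A against ES at day 21 to 2 genes and added the 2 line differences given with them, and it changed no other call of the 10 genes. Of the single values of the genes, 17 calls were lost without background correction, 16 with the authors' signal, 16 with median scaling, 10 without the detection filter, 15 on only the groups compared, 2 with all kept probes and 81 over all arrays left out, where the cause was not tested. Counts over all genes were 0.542 to 1.03 times those reported without background correction, 0.547 to 0.899 times with the authors' signal and 0.2 to 1.14 times with median scaling, so the percentages of all genes called shift with the setting. A slide block was not run, as the headers name no slide. First days and detection limits depend on signal over background. Alb, Afp and, in the GPSC lines, Ttr allow no statement on their culture levels beyond a bound, and Rbp4 allows none at all.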
